A study of Mus musculus with 20 samples.

Results

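The interferon-stimulated genes described here are 41 mouse genes known to be induced by interferons, chosen by name with earlier results of these data known. Their levels are given for the hypothalamus of obese mice that received celastrol or its vehicle. Of the 41 genes, 37 had a probe set that the platform annotation assigned to 1 gene symbol, out of 18704 such genes on the array. Where a gene had several such probe sets, the one with the highest mean over the 20 arrays was used. Of the 37 genes, 33 lay above the intensity filter (log2 7.04, the 25th percentile of all probe sets) and were among the 14129 genes tested. Dhx58, Ddx60, Mx1 and Mx2 lay below it and are given by their levels. Isg15, Gbp2, Herc6 and Ifi44 were not analysed here, Isg15 and Gbp2 because their probe sets carry several symbols.

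All 20 arrays came from male C57BL/6J mice that started a diet with 45% fat at 4 weeks of age and stayed on it for 16 weeks. Mice received DMSO, the vehicle, or celastrol, a plant triterpenoid, into the peritoneum, and RNA was taken from the hypothalamus at 6 h, 1 day or 4 days. There were 3 vehicle arrays at each time, 4 celastrol arrays at 6 h and at 1 day, and 3 celastrol arrays at 4 days. The labels of all groups give 25 µl of DMSO daily. For celastrol the labels also state a volume of 100 µl at each time, so the stated volumes differ between the treatments. They give 250 µg/kg beside the 6 h time, and no dose beside the later times. Untreated and lean mice were not analysed here, and every group shared the diet, the obesity and the injection of DMSO or of celastrol. The replicates are labelled as biological, but the labels do not say how many animals each array holds.

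Type I interferons bind a receptor whose kinases JAK1 and TYK2 phosphorylate STAT2. With IRF9 it forms part of a complex that binds the interferon-stimulated response element (ISRE) in promoters, while interferon gamma acts mainly through the gamma-activated site (GAS). The induced proteins sense viral RNA, block viral entry and translation, and load peptides on MHC class I, and in the brain microglia, astrocytes, endothelium and neurons can all express them.

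Promoters of 6 genes on which the results turn are printed here, since the ISRE and the GAS are the sites through which interferons act on such genes. RefSeq promoter windows of 300 bases, from 250 before the gene start to 50 after it (build GRCm38.p6), were found for 32 of the 41 genes. Usp18, Dhx58, Zbp1, Mx1, Mx2, Rtp4, Parp9, Parp14 and Ifi27 had no entry. The ISRE core GAAANNGAAA, or its reverse complement TTTCNNTTTC, stood in the window of 16 of the 32 genes (50%), against 3.99% of all 27025 genes with a window. The GAS motif TTCNNNGAA, which reads the same on both strands, stood in 8 of the 32 (25%), against 9.55% of all. The sequences run 5′ to 3′ on the gene's strand from 250 bases before the start to 30 after it, with letters of the ISRE core in capitals.
Ifit1 (chr19:34640639-34640918, plus strand): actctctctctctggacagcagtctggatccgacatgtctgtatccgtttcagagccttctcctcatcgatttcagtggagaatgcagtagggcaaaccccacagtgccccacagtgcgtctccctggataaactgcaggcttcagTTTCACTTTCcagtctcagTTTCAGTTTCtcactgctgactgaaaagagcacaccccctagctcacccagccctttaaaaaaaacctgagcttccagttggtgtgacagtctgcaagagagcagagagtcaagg
Ifit3 (chr19:34583279-34583558, plus strand): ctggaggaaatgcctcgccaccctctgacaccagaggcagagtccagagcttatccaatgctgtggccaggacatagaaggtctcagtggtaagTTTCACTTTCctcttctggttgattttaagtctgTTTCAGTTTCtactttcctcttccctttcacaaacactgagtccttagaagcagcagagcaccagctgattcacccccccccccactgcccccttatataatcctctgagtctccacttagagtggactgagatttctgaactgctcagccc
Ifitm2 (chr7:140955932-140956211, minus strand): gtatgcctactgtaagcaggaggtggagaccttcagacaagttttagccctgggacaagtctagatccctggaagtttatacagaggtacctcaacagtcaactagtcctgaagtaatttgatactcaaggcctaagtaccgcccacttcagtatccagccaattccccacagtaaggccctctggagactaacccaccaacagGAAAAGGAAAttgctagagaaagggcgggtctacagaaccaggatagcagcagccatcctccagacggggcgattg
Ifitm3 (chr7:141010715-141010994, minus strand): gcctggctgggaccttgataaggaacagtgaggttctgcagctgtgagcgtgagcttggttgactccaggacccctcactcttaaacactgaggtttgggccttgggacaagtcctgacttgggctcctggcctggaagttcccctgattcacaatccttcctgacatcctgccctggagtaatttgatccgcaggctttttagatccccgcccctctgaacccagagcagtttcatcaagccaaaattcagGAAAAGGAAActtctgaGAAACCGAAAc
Gbp3 (chr3:142559794-142560073, plus strand): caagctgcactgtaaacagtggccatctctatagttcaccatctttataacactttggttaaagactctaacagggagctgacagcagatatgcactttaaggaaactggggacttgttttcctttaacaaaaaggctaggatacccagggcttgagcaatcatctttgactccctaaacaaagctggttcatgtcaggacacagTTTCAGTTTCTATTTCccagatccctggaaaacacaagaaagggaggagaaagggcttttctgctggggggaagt
Irf7 (chr7:141266395-141266674, minus strand): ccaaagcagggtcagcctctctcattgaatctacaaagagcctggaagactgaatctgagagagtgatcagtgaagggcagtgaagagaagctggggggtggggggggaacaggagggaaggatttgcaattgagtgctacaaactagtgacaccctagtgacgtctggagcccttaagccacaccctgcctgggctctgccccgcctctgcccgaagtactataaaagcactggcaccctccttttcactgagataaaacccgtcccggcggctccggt
Ifit1 held the core at -104 and -85 and Ifit3 at -156 and -122, counted from the gene start. Ifitm2 held it once, at -46, and Ifitm3 at 3 and 20. Gbp3 held overlapping matches at -45 and -39. The Irf7 window held none, which says only that these letters are not in it. A match is a description of the sequence and was not measured as a bound site.

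The arrays were alike in scale, with medians of 8.6 to 8.65 and SDs of 1.98 to 2.06 over the probe sets. On the first component of the residuals from the group means, the third vehicle replicate scored 11.4 at 6 h and 9.61 at 1 day, while the other 18 arrays ran from -6.13 to 5.32. These 2 arrays stood apart, and the main results that rest on them are also given without them. With either of them left out, 0 of the 33 genes tested passed in any comparison. Of 14 hypothalamic markers with a single-symbol probe set, Pomc, Hcrt and Avp among them, all 14 lay above the intensity filter. Of 8 neutrophil and monocyte markers 7 lay below it, as did 8 of 10 lymphocyte markers, S100a8, S100a9 and Cd79a among them. In whole tissue, fewer cells of a type and less RNA per cell cannot be told apart.

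No interferon-stimulated gene passed the threshold in any comparison of celastrol with vehicle. For most, the 95% interval of limma's fit to the intensities lay within 1.5-fold in either direction (0.58 on the log2 scale). That held for 33 of 33 genes at 6 h, 31 of 33 at 1 day and 33 of 33 at 4 days. Each interval is that of a single gene, not adjusted for the number of genes or times. It bounds a difference in array intensity, not in transcript amount. The exceptions at 1 day were Ifitm2 and Ifitm3. These genes varied more between arrays of a group than most genes did. Their residual SD had a median of 0.11 on the log2 scale, against 0.08 for all genes tested, and 26 of 33 lay above that median. The median intensity of the 33 genes was 7.96, against 9.32 for all genes tested. Intensities of different probe sets do not rank transcripts.

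**Figure D1:**
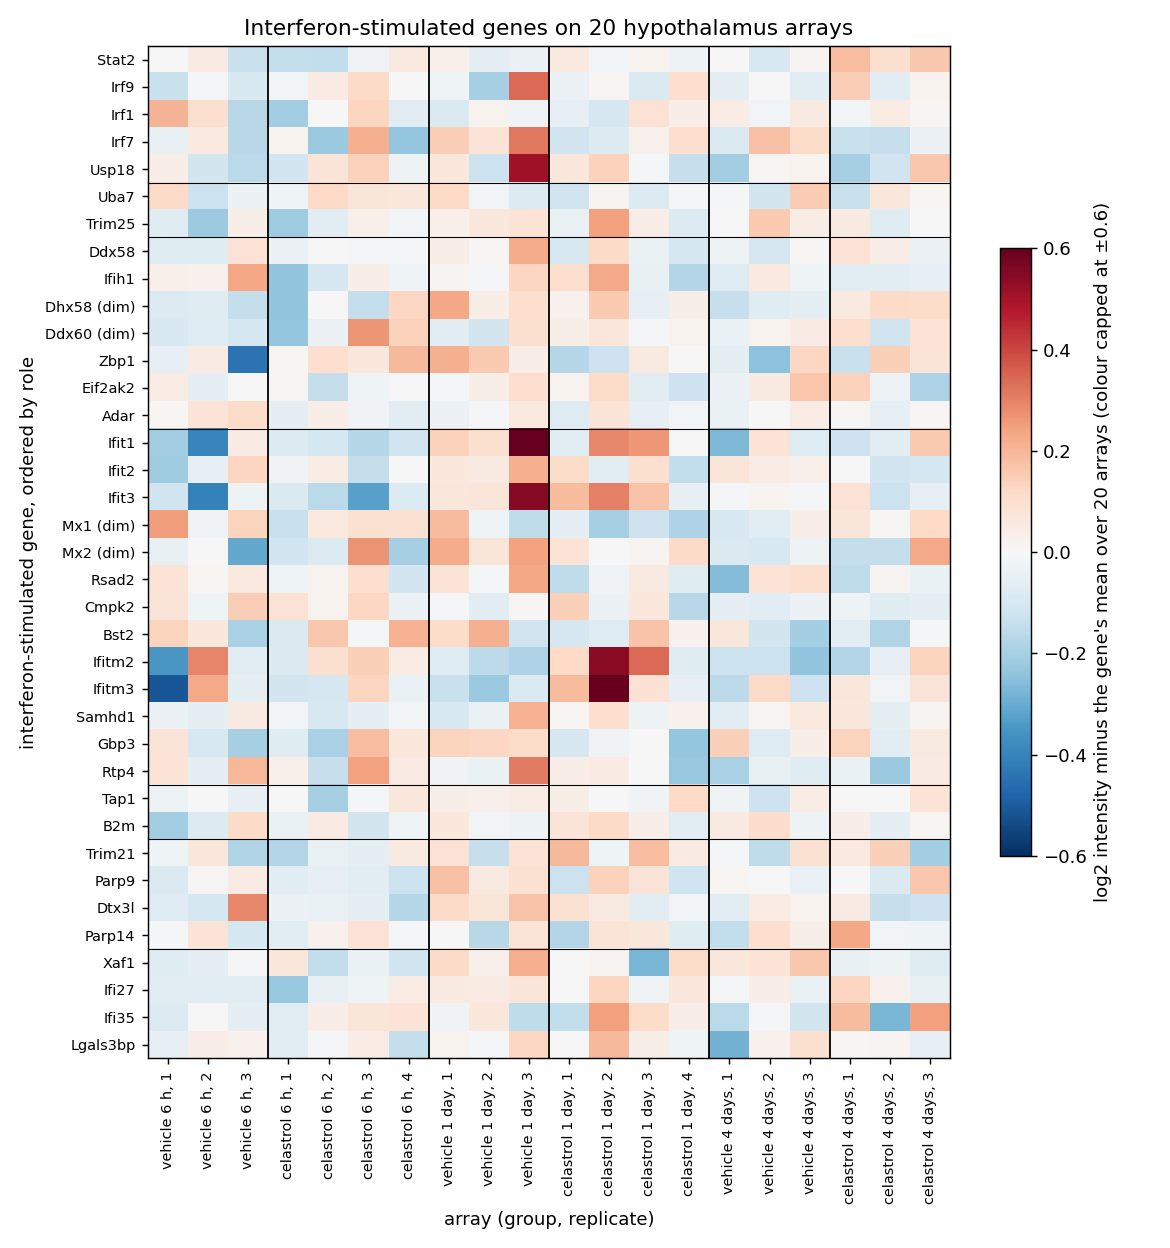
Log2 deviation of each interferon-stimulated gene (rows) from its own mean over 20 arrays, for each array (columns, grouped by treatment and time), with red above and blue below the mean, colour capped at 0.6 in either direction and genes below the filter marked dim. In the rows of Ifit1, Ifit3 and Usp18 the highest cell is that of vehicle replicate 3 at 1 day, which held the highest value of all 20 arrays for 11 of the 33 tested genes.

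At 6 h celastrol and vehicle gave nearly equal levels of these genes. Of 33 tested, 17 were higher and 16 lower with celastrol, with a median log2 difference of 0.0035 beside -0.0147 over all genes. None passed limma's adjusted threshold of 0.05 (smallest adjusted p = 0.651), and 0% of all genes did. At an unadjusted p under 0.05, 1 was higher and 1 lower, against 2.5% and 5.05% of all genes. The highest difference was that of Zbp1, a sensor of Z-form nucleic acids, at 0.24 ± 0.1 (SE) with an adjusted p of 0.651. The lowest was that of Ifih1, the RNA sensor MDA5, at -0.18 ± 0.081 (SE) with an adjusted p of 0.658. Both moved with vehicle replicate 3 at 6 h, without which they were 0.09 for Zbp1 and -0.11 for Ifih1. Vehicle and celastrol arrays overlapped for every one of the 33 genes, while 6.35% of all genes showed no overlap. Without that vehicle array Ddx58 and Ifit1 were higher with celastrol without overlap, 2 of 33, against 4.41% of all genes.

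At 1 day the genes pointed in different directions. Ifitm2 and Ifitm3, membrane proteins that restrict viral entry, were higher with celastrol by 1.29-fold and 1.31-fold, and Gbp3, an interferon-induced GTPase, was lower by 1.16-fold. None of the 3 passed the test. Of 33 genes, 10 were higher and 23 lower, with a median log2 difference of -0.0408 beside 0.00628 over all genes, of which 53.8% were higher. With vehicle replicate 3 at 1 day left out, 17 were higher and 16 lower, with a median of 0.00576. In limma's test 0 of 33 passed (smallest adjusted p = 0.374), against 60 genes or 0.425% of all, and at an unadjusted p under 0.05 it gave 2 higher and 3 lower, against 5% and 3.19% of all. Without that array these were 2 and 1, against 7.52% and 5.68%.

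Ifitm2, Ifitm3 and Gbp3 were also the only genes of the 33 whose vehicle and celastrol arrays did not overlap at 1 day, 2 higher and 1 lower, which held for 4.69% and 3.13% of all genes. Samhd1 was also higher and Zbp1 also lower without overlap when vehicle replicate 3 was left out, which made 3 and 2, against 14.7% and 9.99% of all. Ifitm2 read 9.88, 9.8 and 9.77 with vehicle and 10.07, 10.49, 10.29 and 9.88 with celastrol, so the closest arrays differed by less than the last digit given. The group means were 9.82 ± 0.054 (SD, n = 3) and 10.19 ± 0.27 (SD, n = 4), a difference of 0.37 ± 0.13 (SE) with a 95% interval of 0.10 to 0.64 and an adjusted p of 0.374. Celastrol replicate 2 was the highest array for both genes, and without it the differences were 0.27 for Ifitm2 and 0.22 for Ifitm3. Ifitm3 read 9.64, 9.55 and 9.69 with vehicle and 9.96, 10.5, 9.86 and 9.73 with celastrol. Its means were 9.63 ± 0.069 (SD, n = 3) and 10.01 ± 0.34 (SD, n = 4), a difference of 0.39 ± 0.15 (SE), with an interval of 0.07 to 0.70 and an adjusted p of 0.462. The 2 other probe sets of Ifitm2 gave 0.45 and 0.37. Ifitm2 and Ifitm3 are close paralogs, so how their signal divides between them is uncertain.

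Gbp3 at 1 day read 7.63, 7.62 and 7.61 with vehicle and 7.4, 7.48, 7.49 and 7.27 with celastrol. Every celastrol array lay below the vehicle arrays, which were within 0.02 of each other. The difference was -0.21 ± 0.083 (SE) with an adjusted p of 0.465, and -0.22 without vehicle replicate 3. Irf7, the transcription factor that amplifies interferon production, differed by -0.20 ± 0.095 (SE) with an adjusted p of 0.609. Xaf1, a pro-apoptotic interferon target, differed by -0.16 ± 0.071 (SE) with an adjusted p of 0.569. Without vehicle replicate 3 at 1 day these were -0.13 and -0.11.

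**Figure D2:**
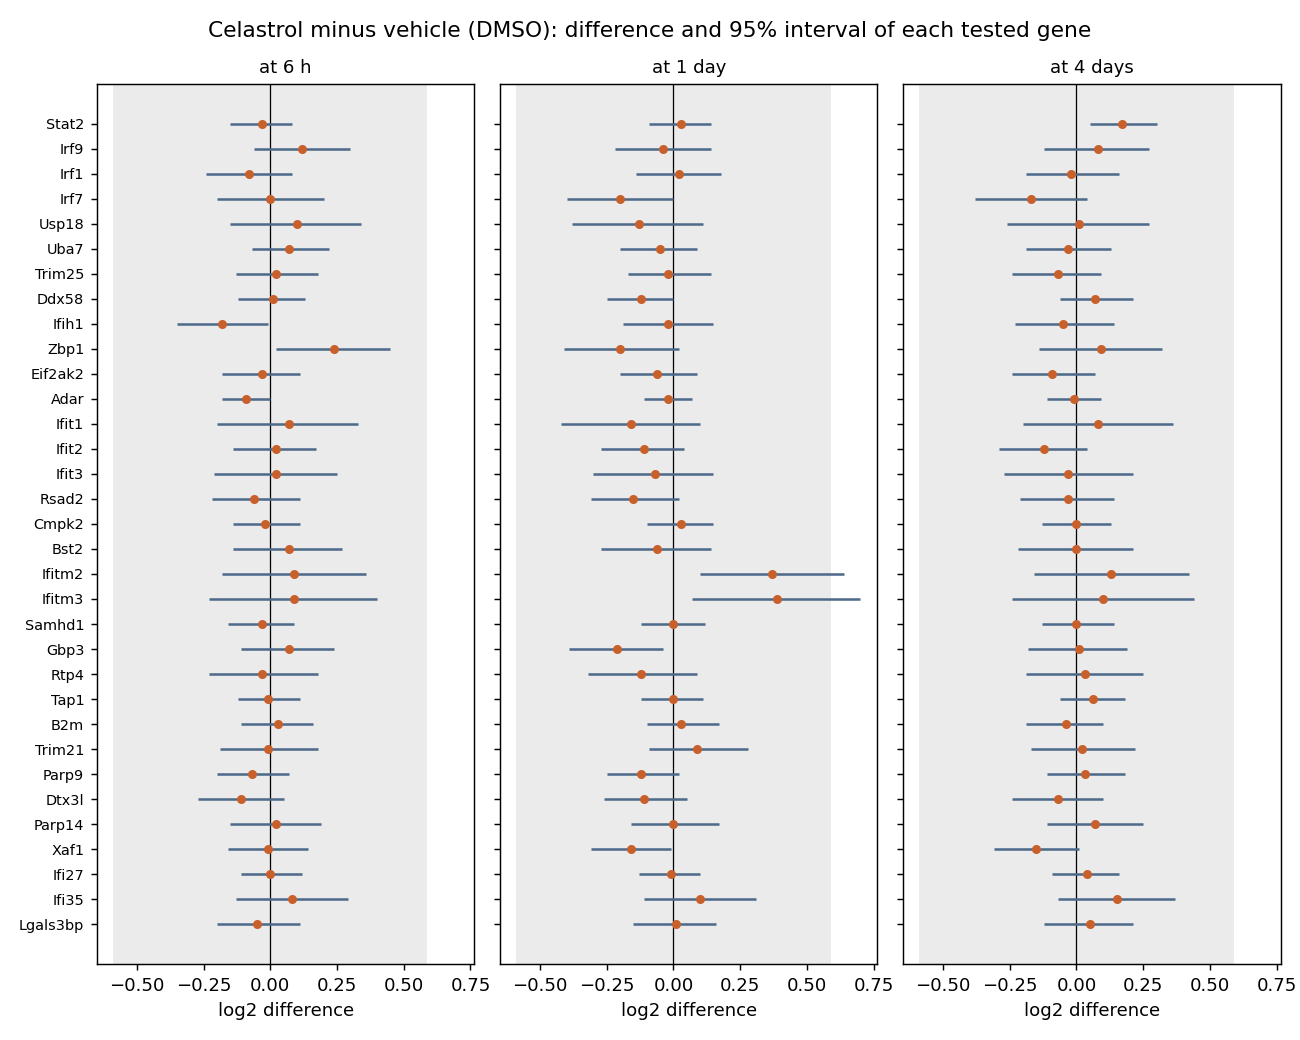
Log2 difference of celastrol minus vehicle (points) and its 95% interval from limma (bars) for the 33 tested genes at 6 h, 1 day and 4 days, with the grey band marking 1.5-fold in either direction. The intervals of Ifitm2 and Ifitm3 at 1 day run past the band, and no other interval does.

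**Figure D3:**
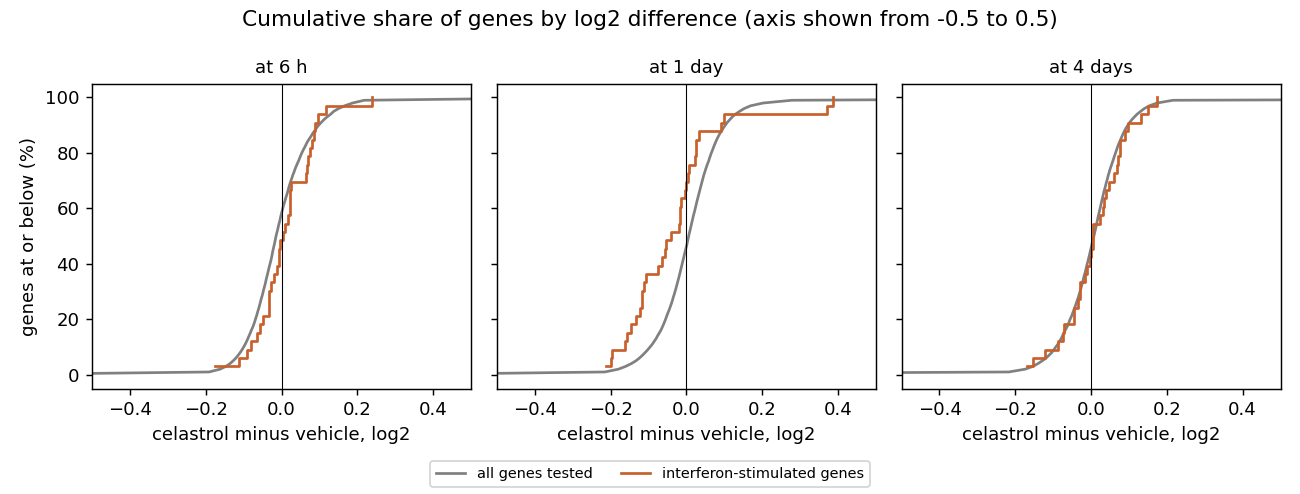
Cumulative percentage of genes at or below each log2 difference of celastrol minus vehicle, for the 33 interferon-stimulated genes and for all 14129 genes tested, with the axis limited to between -0.5 and 0.5. At 1 day 23 of the 33 steps lie below 0, with a median of -0.0408 (0.00576 without vehicle replicate 3), and the steps at the upper end are Ifitm3 and Ifitm2.

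At 4 days the levels were again close. Of 33 genes, 19 were higher and 14 lower with celastrol, with a median log2 difference of 0.00554 beside 0.00753 over all genes. None passed limma's adjusted threshold (smallest adjusted p = 0.544), against 9 genes or 0.0637% of all, and at an unadjusted p under 0.05 1 was higher and 0 lower, against 4.25% and 2.28% of all. The groups did not overlap for Stat2, which was higher with celastrol, and for Ifit2 and Xaf1, which were lower. That is 1 gene higher and 2 lower of 33, against 8.89% and 5.47% of all genes. Stat2, the signal transducer of type I interferon, read 8.86, 8.77 and 8.88 with vehicle and 9.05, 8.96 and 9.03 with celastrol, a difference of 0.17 ± 0.058 (SE) with an adjusted p of 0.544.

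Averaged over the times, 14 genes were higher and 19 lower, with a median of -0.0101 beside -6.88e-05 over all genes. With vehicle replicate 3 at 1 day left out, 18 were higher and 15 lower, with a median of 0.00784. In limma's test 0 of 33 passed (smallest adjusted p = 0.405), against 0.573% of all genes, and at an unadjusted p under 0.05 2 were higher and 3 lower, against 4.69% and 4.08% of all. Ifitm2 averaged 0.20 ± 0.076 (SE) with an adjusted p of 0.405, and Ifitm3 0.19 ± 0.089 (SE) with 0.557. Ifi35 averaged 0.11 ± 0.059 (SE) with an adjusted p of 0.637. On the lower side were Irf7 at -0.12 ± 0.056 (SE), Xaf1 at -0.11 ± 0.042 (SE) and Dtx3l at -0.10 ± 0.045 (SE), with adjusted p-values of 0.529, 0.42 and 0.548. Dtx3l averaged -0.05 without vehicle replicate 3 at 6 h.

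Tests of the difference between the times also called 0 of the 33 genes. All genes were called at 0.00708% for 1 day against 6 h, 0.0142% for 4 days against 6 h and 0.00708% for 4 days against 1 day. At an unadjusted p under 0.05, limma gave 2, 1 and 1 of the 33, against 10.3%, 7.68% and 2.47% of all genes. The effect on Zbp1 differed by -0.43 ± 0.15 (SE) between 1 day and 6 h (adjusted p = 0.419), the largest such difference of the 33 genes with all arrays. It was -0.29 without vehicle replicate 3 at 6 h, where Ifit1, at -0.35, differed more. Gbp3 differed by -0.28 ± 0.12 (SE) over the same times (adjusted p = 0.461). For Stat2 the effect at 4 days exceeded that at 6 h by 0.21 ± 0.08 (SE) (adjusted p = 0.611).

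The vehicle arrays at 1 day stood higher for these genes than those at 6 h, without any gene passing the test. Of 33 genes, 26 were higher at 1 day and 7 lower, with a median log2 difference of 0.0638 beside -0.00196 over all genes. In limma's test 0 passed (smallest adjusted p = 0.147), against 0.0991% of all genes, and 7 were higher and 0 lower at an unadjusted p under 0.05, against 5.87% and 6.67% of all. At that p 3 were higher and 0 lower without vehicle replicate 3 at 1 day, against 6.79% and 8.03%. The arrays did not overlap for 8 genes, 8 higher and 0 lower at 1 day, against 6.48% and 7.93% of all genes. The 8 were Irf7, Ifit1, Ifit3, Gbp3, Tap1, Parp9, Xaf1 and Ifi27. The counts without vehicle replicate 3 at 1 day were 9 higher and 2 lower, against 13.5% and 17.4% of all genes, and without vehicle replicate 3 at 6 h they were 13 and 1, against 13.3% and 11.9%. These vehicle arrays are the same ones that celastrol was set against at 1 day, so the 2 comparisons are not independent.

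Ifit1 and Ifit3, of a family that binds viral RNA and blocks its translation, differed most between vehicle at 6 h and 1 day with all arrays. Ifit1 had means of 8.2 ± 0.22 (SD, n = 3) at 6 h, 8.67 ± 0.29 (SD, n = 3) at 1 day and 8.29 ± 0.18 (SD, n = 3) at 4 days. From 6 h to 1 day this is 0.47 ± 0.13 (SE), or 1.39-fold, with an adjusted p of 0.151. For Ifit3 the means were 9.24 ± 0.2 (SD, n = 3), 9.66 ± 0.28 (SD, n = 3) and 9.43 ± 0.013 (SD, n = 3), and the difference was 0.41 ± 0.12 (SE) with an adjusted p of 0.147. Both were highest of all 20 arrays in vehicle replicate 3 at 1 day, and without it the differences were 0.30 for Ifit1 and 0.26 for Ifit3. Zbp1 then differed most of the 33, and their median was 0.0451.

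Between 1 day and 4 days the vehicle arrays differed the other way. Of 33 genes 26 were lower at 4 days and 7 higher, with a median of -0.0617 beside -0.00206. With vehicle replicate 3 at 1 day left out, 22 were lower and 11 higher, with a median of -0.04 beside 0.00748. In limma's test 0 passed, against 0% of all genes, and 0 were higher and 1 lower at an unadjusted p under 0.05, against 3.52% and 3.85% of all. No gene was higher without overlap, against 7.35% of all genes, and 7 were lower, against 7.11%. The 7 were Ddx58, Ifit1, Ifit3, Rtp4, Parp9, Dtx3l and Ifi27. Without that array Zbp1 and Bst2 joined them, which made 9, against 16.2% of all genes. The difference of Ifit1, -0.37 with all arrays, was then -0.20. Vehicle arrays at 4 days and 6 h differed by a median of 0.0169, with 0 genes passing, against 0.0283% of all, and 0 higher or lower at an unadjusted p under 0.05, against 4.81% and 5.78% of all. Ifit3, Xaf1 and Ifi27 were higher at 4 days without overlap, against 6.72% of all genes, and Cmpk2 was lower, against 7.45%. Without vehicle replicate 3 at 6 h 7 were higher and 2 lower without overlap, against 13.9% and 13.7%, and 3 were higher and 0 lower at an unadjusted p under 0.05, against 5.01% and 4.37%.

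**Figure D4:**
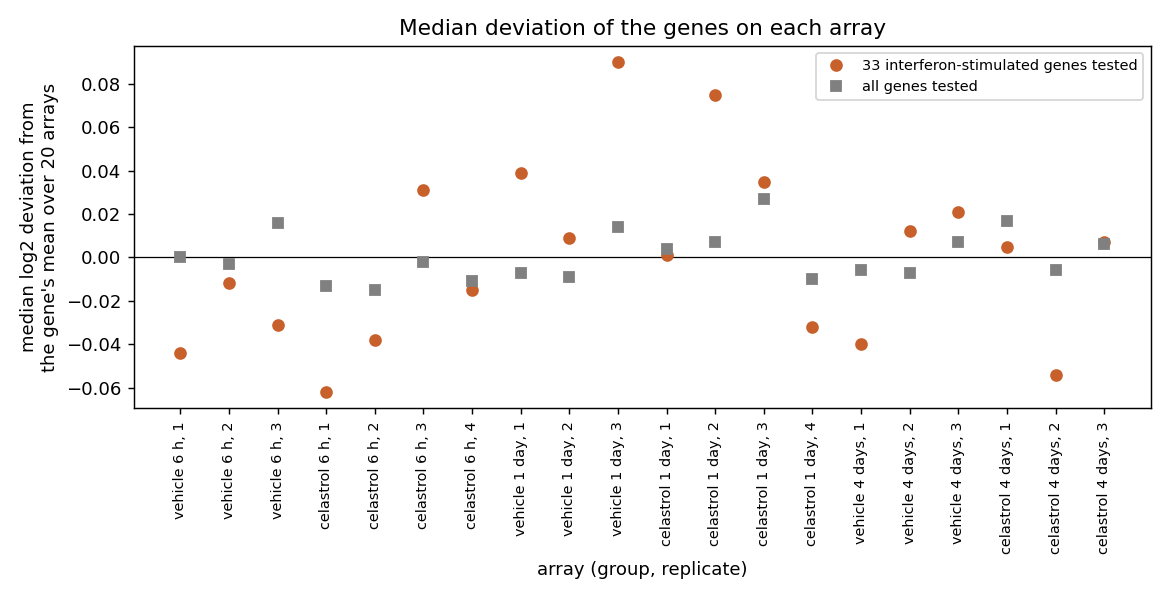
Median log2 deviation from each gene's mean over 20 arrays, for the 33 interferon-stimulated genes (circles) and all 14129 genes tested (squares), on each array. Vehicle replicate 3 and celastrol replicate 2 at 1 day have the highest medians of the 33 genes, 0.09 and 0.075.

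Single arrays held many of the highest values at 1 day. Vehicle replicate 3 at 1 day was the highest of all 20 arrays for 11 of the 33 genes (33.3%), against 6.68% of all genes: Irf9, Irf7, Usp18, Ddx58, Ifit1, Ifit2, Ifit3, Rsad2, Samhd1, Rtp4 and Xaf1. Celastrol replicate 2 at 1 day was the highest for 5 of the 33, against 4.83% of all. Those were Trim25, Ifitm2, Ifitm3, B2m and Lgals3bp. Neither array carries a label that sets it apart from its group.

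The signalling and feedback genes were Stat2, Irf9, Irf1, Irf7 and Usp18. Their median differences were -0.00439 at 6 h, -0.0408 at 1 day and 0.00579 at 4 days, with 0 of 5 passing at each time. Of all genes 0%, 0.425% and 0.0637% passed at these times, and the count of 0 in each role below stands beside these shares. Medians of the 5 signalling genes without vehicle replicate 3 of the same time were -0.0627 at 6 h and 0.0265 at 1 day. At 1 day 4 were then higher and 1 lower. The 1-day difference of Irf9 went from -0.04 to 0.11 and that of Usp18 from -0.13 to 0.05. At 6 h, Stat2 read 8.86, 8.92 and 8.73 on the vehicle arrays and 8.72, 8.72, 8.84 and 8.93 on the celastrol arrays. Stat2 at 1 day read 8.9, 8.81 and 8.83 with vehicle and 8.92, 8.85, 8.89 and 8.83 with celastrol. Values of Stat2 at 4 days were 8.86, 8.77 and 8.88 with vehicle and 9.05, 8.96 and 9.03 with celastrol. The 3 celastrol arrays at 4 days were the highest of all 20, and the groups overlapped at 6 h and at 1 day. Irf1, a transcription factor induced mainly by interferon gamma, lay between 7.64 and 8.05. Irf9 completes the complex that binds the ISRE. At 6 h, Irf9 read 8.84, 8.96 and 8.88 on the vehicle arrays and 8.96, 9.02, 9.09 and 8.98 on the celastrol arrays. Irf9 at 1 day read 8.95, 8.78 and 9.32 with vehicle and 8.94, 8.98, 8.89 and 9.08 with celastrol. Values of Irf9 at 4 days were 8.92, 8.97 and 8.91 with vehicle and 9.12, 8.91 and 9 with celastrol. The groups overlapped at all times, and vehicle replicate 3 at 1 day was the highest array.

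Irf7 is itself induced by interferon and drives further interferon genes. At 6 h, Irf7 read 7.38, 7.48 and 7.26 on the vehicle arrays and 7.45, 7.2, 7.64 and 7.19 on the celastrol arrays. Irf7 at 1 day read 7.57, 7.51 and 7.74 with vehicle and 7.31, 7.34, 7.45 and 7.53 with celastrol. Values of Irf7 at 4 days were 7.34, 7.6 and 7.53 with vehicle and 7.29, 7.29 and 7.39 with celastrol. Celastrol arrays lay lower on average than the vehicle arrays at 1 day and 4 days, with overlap. The means at 6 h, 1 day and 4 days were 7.37, 7.61 and 7.49 with vehicle and 7.37, 7.41 and 7.32 with celastrol. At 4 days the difference was -0.17 ± 0.1 (SE) with an adjusted p of 0.847. Usp18, named after its values were seen, removes ISG15 from proteins and blocks the interferon receptor. At 6 h, Usp18 read 8, 7.86 and 7.8 on the vehicle arrays and 7.85, 8.04, 8.1 and 7.93 on the celastrol arrays. Usp18 at 1 day read 8.03, 7.83 and 8.47 with vehicle and 8.03, 8.1, 7.96 and 7.83 with celastrol. Values of Usp18 at 4 days were 7.76, 7.98 and 7.98 with vehicle and 7.77, 7.84 and 8.12 with celastrol. Vehicle replicate 3 at 1 day was the highest array, and no group stood clear of its control.

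ISG15 conjugation was represented by Uba7, its activating enzyme, and Trim25, a ligase for ISG15 and ubiquitin. Their median differences were 0.0477 at 6 h, -0.0354 at 1 day and -0.0509 at 4 days, with 0 of 2 passing at each time. These medians were, without vehicle replicate 3 of the same time, 0.073 at 6 h and -0.0522 at 1 day. At 6 h, Uba7 read 7.99, 7.75 and 7.84 on the vehicle arrays and 7.85, 8, 7.95 and 7.95 on the celastrol arrays. Uba7 at 1 day read 8, 7.86 and 7.79 with vehicle and 7.76, 7.89, 7.8 and 7.87 with celastrol. Values of Uba7 at 4 days were 7.86, 7.77 and 8.03 with vehicle and 7.75, 7.94 and 7.89 with celastrol. The groups overlapped at each time. Trim25 lay between 7.60 and 8.07 over the 20 arrays.

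Nucleic acid sensors had median differences of -0.0343 at 6 h, -0.0551 at 1 day and -0.0119 at 4 days. At 1 day all 5 tested were lower with celastrol, with 0 of 5 passing limma's test, against 0.425% of all genes. At an unadjusted p under 0.05 0 of the 5 were lower, against 3.19% of all genes. Leaving out vehicle replicate 3 at 1 day gave 3 lower and 2 higher, with a median of -0.0245, Ifih1 going from -0.02 to 0.03 and Adar from -0.02 to 0.01. Ddx58 encodes RIG-I, the sensor of RNA with a 5′ triphosphate. At 6 h, Ddx58 read 8.47, 8.47 and 8.63 on the vehicle arrays and 8.51, 8.54, 8.54 and 8.53 on the celastrol arrays. Ddx58 at 1 day read 8.58, 8.55 and 8.77 with vehicle and 8.45, 8.65, 8.5 and 8.44 with celastrol. Values of Ddx58 at 4 days were 8.51, 8.44 and 8.55 with vehicle and 8.63, 8.58 and 8.51 with celastrol. Vehicle replicate 3 was highest at 1 day and celastrol replicate 4 at 1 day among the lowest. The 1-day difference was -0.12 ± 0.06 (SE), with an adjusted p of 0.615, and -0.06 without that vehicle array.

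Ifih1 senses long double-stranded RNA. At 6 h, Ifih1 read 7.84, 7.83 and 8.04 on the vehicle arrays and 7.57, 7.7, 7.85 and 7.78 on the celastrol arrays. Ifih1 at 1 day read 7.82, 7.79 and 7.94 with vehicle and 7.91, 8.03, 7.76 and 7.63 with celastrol. Values of Ifih1 at 4 days were 7.73, 7.87 and 7.78 with vehicle and 7.74, 7.74 and 7.75 with celastrol. Celastrol replicate 1 at 6 h was the lowest array, and vehicle replicate 3 at 6 h the highest. Zbp1 differed in sign between 6 h and 1 day. At 6 h, Zbp1 read 7.43, 7.52 and 7.03 on the vehicle arrays and 7.48, 7.57, 7.54 and 7.67 on the celastrol arrays. Zbp1 at 1 day read 7.69, 7.63 and 7.51 with vehicle and 7.3, 7.35, 7.53 and 7.47 with celastrol. Values of Zbp1 at 4 days were 7.42, 7.23 and 7.59 with vehicle and 7.34, 7.62 and 7.55 with celastrol. The low vehicle replicate 3 at 6 h set the range of that group, and the 1-day difference was -0.20 ± 0.1 (SE) with an adjusted p of 0.648.

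Adar edits adenosine to inosine in double-stranded RNA, which keeps a cell's own RNA from being sensed. At 6 h, Adar read 11.28, 11.35 and 11.38 on the vehicle arrays and 11.21, 11.31, 11.25 and 11.21 on the celastrol arrays. Adar at 1 day read 11.24, 11.26 and 11.33 with vehicle and 11.19, 11.35, 11.22 and 11.26 with celastrol. Values of Adar at 4 days were 11.23, 11.27 and 11.32 with vehicle and 11.28, 11.22 and 11.28 with celastrol. It varied least of the 33 genes, with a residual SD of 0.05, and its 6 h difference was -0.09 ± 0.044 (SE) with an adjusted p of 0.658. Eif2ak2, the kinase PKR that halts translation, lay between 7.26 and 7.61. Dhx58, the RIG-I-like helicase LGP2, lay below the intensity filter and was not tested. At 6 h, Dhx58 read 6.56, 6.57 and 6.5 on the vehicle arrays and 6.41, 6.64, 6.5 and 6.77 on the celastrol arrays. Dhx58 at 1 day read 6.88, 6.69 and 6.75 with vehicle and 6.67, 6.8, 6.6 and 6.68 with celastrol. Values of Dhx58 at 4 days were 6.51, 6.57 and 6.59 with vehicle and 6.71, 6.76 and 6.76 with celastrol. Its values stayed between 6.41 and 6.88. The groups overlapped at 6 h and 1 day. At 4 days every celastrol array lay above the vehicle arrays, which held for 8.89% of all genes tested. Ddx60, also below the filter, lay between 6.45 and 6.95.

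Antiviral effectors, 11 tested, had median differences of 0.021 at 6 h, -0.0749 at 1 day and 0.00414 at 4 days, with 0 of 11 passing at each time. Leaving out vehicle replicate 3 of the same time gave medians of 0.0325 at 6 h and 0.00576 at 1 day, where 6 were then higher and 5 lower, against 3 and 8 with all arrays. At 6 h, Ifit1 read 8.17, 7.99 and 8.43 on the vehicle arrays and 8.3, 8.28, 8.21 and 8.26 on the celastrol arrays. Ifit1 at 1 day read 8.52, 8.48 and 9 with vehicle and 8.32, 8.67, 8.64 and 8.38 with celastrol. Values of Ifit1 at 4 days were 8.12, 8.46 and 8.3 with vehicle and 8.26, 8.32 and 8.54 with celastrol. The groups of Ifit1 overlapped at each time, and its difference at 1 day was -0.16 ± 0.12 (SE) with an adjusted p of 0.775. It was 0.01 without vehicle replicate 3. Ifit3 was named after its values were seen. At 6 h, Ifit3 read 9.31, 9.02 and 9.4 on the vehicle arrays and 9.34, 9.27, 9.1 and 9.35 on the celastrol arrays. Ifit3 at 1 day read 9.5, 9.5 and 9.98 with vehicle and 9.62, 9.73, 9.6 and 9.38 with celastrol. Values of Ifit3 at 4 days were 9.42, 9.44 and 9.42 with vehicle and 9.52, 9.3 and 9.38 with celastrol. The groups overlapped at each time. Ifit2 belongs to the same family. At 6 h, Ifit2 read 8.06, 8.23 and 8.41 on the vehicle arrays and 8.26, 8.32, 8.13 and 8.28 on the celastrol arrays. Ifit2 at 1 day read 8.34, 8.33 and 8.49 with vehicle and 8.39, 8.22, 8.37 and 8.13 with celastrol. Values of Ifit2 at 4 days were 8.35, 8.32 and 8.31 with vehicle and 8.28, 8.17 and 8.17 with celastrol. At 4 days the celastrol arrays lay below the vehicle arrays by a difference of -0.12 ± 0.08 (SE), with an adjusted p of 0.877.

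Outside 1 day the IFITM genes overlapped between the groups. At 6 h, Ifitm2 read 9.61, 10.25 and 9.89 with vehicle and 9.87, 10.05, 10.1 and 10 with celastrol. Ifitm2 at 4 days read 9.83, 9.83 and 9.72 with vehicle and 9.78, 9.91 and 10.09 with celastrol. The vehicle arrays at 6 h spanned a wider range than the celastrol arrays. At 6 h, Ifitm3 read 9.26, 10 and 9.72 with vehicle and 9.67, 9.67, 9.91 and 9.74 with celastrol. Ifitm3 at 4 days read 9.62, 9.89 and 9.65 with vehicle and 9.84, 9.76 and 9.85 with celastrol. With a residual SD of 0.23, Ifitm3 varied most of the 33 genes, followed by Ifitm2 at 0.19 and Ifit1 at 0.18.

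For Gbp3 the pattern of 1 day was not seen at the other times. At 6 h, Gbp3 read 7.57, 7.4 and 7.3 with vehicle and 7.42, 7.3, 7.68 and 7.56 with celastrol. Gbp3 at 4 days read 7.64, 7.42 and 7.54 with vehicle and 7.63, 7.43 and 7.55 with celastrol. Both times the groups overlapped. Mx1 and Mx2, of the family of dynamin-like GTPases, lay below the intensity filter. At 6 h, Mx1 read 5.88, 5.61 and 5.76 on the vehicle arrays and 5.5, 5.69, 5.72 and 5.72 on the celastrol arrays. Mx1 at 1 day read 5.82, 5.61 and 5.48 with vehicle and 5.57, 5.43, 5.5 and 5.44 with celastrol. Values of Mx1 at 4 days were 5.54, 5.57 and 5.67 with vehicle and 5.7, 5.64 and 5.75 with celastrol. No array of Mx1 reached the filter. At 6 h, Mx2 read 5.82, 5.86 and 5.55 on the vehicle arrays and 5.75, 5.78, 6.13 and 5.66 on the celastrol arrays. Mx2 at 1 day read 6.08, 5.93 and 6.1 with vehicle and 5.94, 5.86, 5.88 and 5.97 with celastrol. Values of Mx2 at 4 days were 5.77, 5.77 and 5.83 with vehicle and 5.72, 5.72 and 6.09 with celastrol. No array of Mx2 did so either. Rsad2, which encodes viperin, lay between 6.81 and 7.30, Cmpk2 between 9.37 and 9.68, Bst2, which encodes tetherin, between 7.80 and 8.22, Samhd1 between 9.34 and 9.64, and Rtp4 between 7.08 and 7.62.

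**Figure D5:**
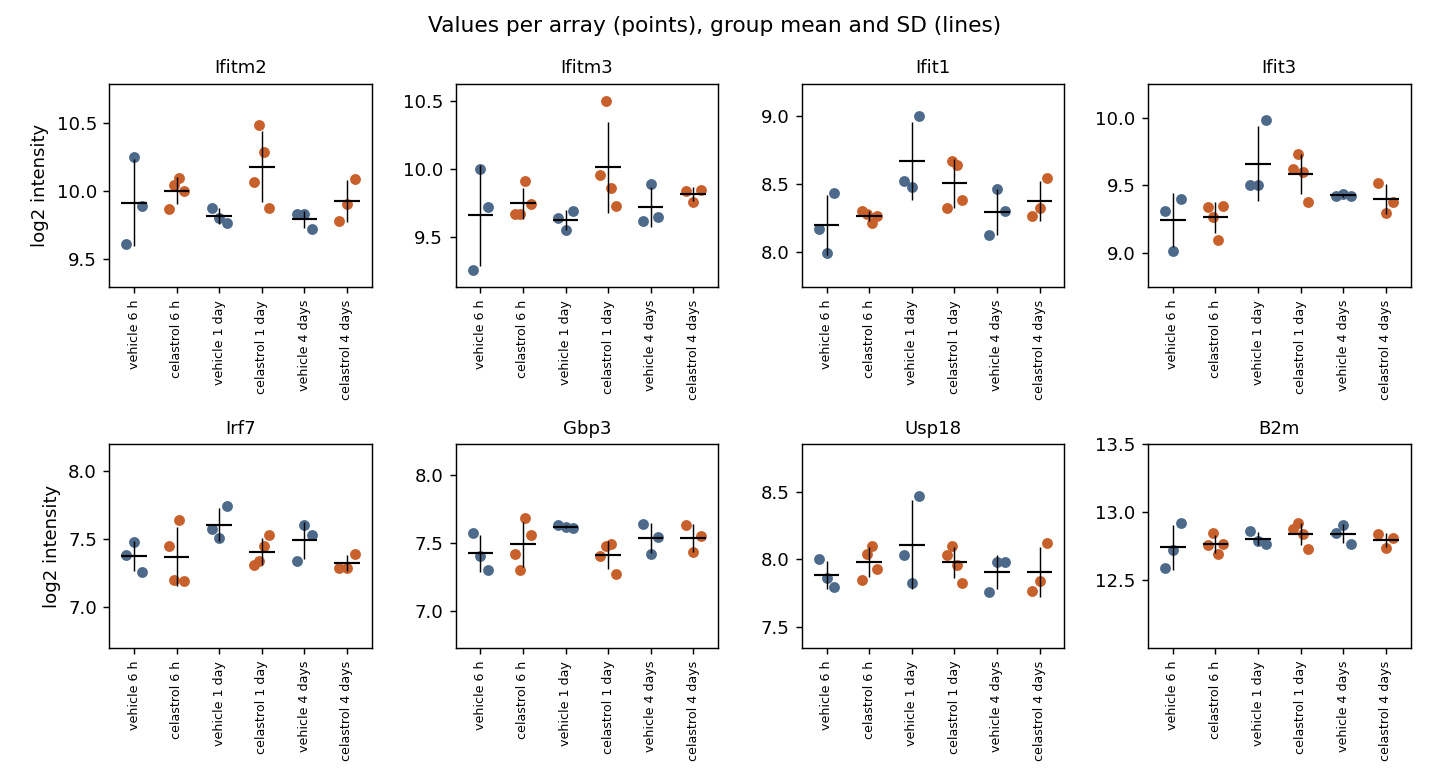
Log2 intensity of selected interferon-stimulated genes on each array, by time and treatment, with each point an array, each horizontal line a group mean and each vertical line its SD. The axes span the same range of log2 units but start at different levels. For Ifitm2 and Ifitm3 the 1-day celastrol arrays lie at or above the vehicle arrays, and for Ifit1 and Ifit3 the highest point is vehicle replicate 3 at 1 day.

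Antigen presentation was represented by B2m, the light chain of MHC class I, and Tap1, a peptide transporter. Their median differences were 0.00893, 0.0153 and 0.00842 at the 3 times, with 0 of 2 passing at each. They were, without vehicle replicate 3 of the same time, 0.0463 at 6 h and 0.00799 at 1 day. At 6 h, B2m read 12.59, 12.72 and 12.92 on the vehicle arrays and 12.76, 12.85, 12.69 and 12.77 on the celastrol arrays. B2m at 1 day read 12.86, 12.79 and 12.77 with vehicle and 12.88, 12.92, 12.84 and 12.73 with celastrol. Values of B2m at 4 days were 12.85, 12.91 and 12.77 with vehicle and 12.84, 12.74 and 12.81 with celastrol. The groups overlapped throughout, and the 95% interval at 1 day ran from -0.10 to 0.17. Tap1 lay between 7.69 and 8.01.

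Ubiquitin ligase and ADP-ribosylation genes had median differences of -0.0366 at 6 h, -0.0511 at 1 day and 0.0279 at 4 days, with 0 of 4 passing at each time. The 1-day median was -0.0116 without vehicle replicate 3 at 1 day. Trim21 is a cytosolic antibody receptor and ubiquitin ligase. At 6 h, Trim21 read 7.4, 7.49 and 7.24 on the vehicle arrays and 7.25, 7.39, 7.37 and 7.48 on the celastrol arrays. Trim21 at 1 day read 7.51, 7.29 and 7.5 with vehicle and 7.62, 7.4, 7.61 and 7.47 with celastrol. Values of Trim21 at 4 days were 7.42, 7.27 and 7.52 with vehicle and 7.49, 7.57 and 7.22 with celastrol. The groups overlapped at each time. Dtx3l pairs with Parp9 in a ligase complex. At 6 h, Dtx3l read 8.01, 7.98 and 8.37 on the vehicle arrays and 8.05, 8.04, 8.02 and 7.91 on the celastrol arrays. Dtx3l at 1 day read 8.2, 8.16 and 8.26 with vehicle and 8.18, 8.14, 8.01 and 8.07 with celastrol. Values of Dtx3l at 4 days were 8.02, 8.13 and 8.1 with vehicle and 8.13, 7.95 and 7.96 with celastrol. Vehicle replicate 3 at 6 h was the highest array, and without it the 6 h difference of -0.11 became 0.01. Parp9 lay between 7.05 and 7.35 and Parp14 between 7.21 and 7.62.

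Other induced genes had median differences of -0.00455 at 6 h, -0.00437 at 1 day and 0.0431 at 4 days, with 0 of 4 passing at each time. Leaving out vehicle replicate 3 of the same time gave 0.00528 at 6 h and 0.017 at 1 day. At 6 h, Xaf1 read 7.78, 7.8 and 7.85 on the vehicle arrays and 7.93, 7.71, 7.81 and 7.74 on the celastrol arrays. Xaf1 at 1 day read 7.97, 7.89 and 8.07 with vehicle and 7.85, 7.87, 7.58 and 7.97 with celastrol. Values of Xaf1 at 4 days were 7.92, 7.94 and 8.02 with vehicle and 7.81, 7.82 and 7.78 with celastrol. At 4 days the celastrol arrays of Xaf1 lay below all vehicle arrays, by -0.15 ± 0.076 (SE) with an adjusted p of 0.777. Ifi35 is an interferon-induced leucine zipper protein. At 6 h, Ifi35 read 7.87, 7.95 and 7.89 on the vehicle arrays and 7.89, 7.99, 8.02 and 8.03 on the celastrol arrays. Ifi35 at 1 day read 7.93, 8.01 and 7.8 with vehicle and 7.81, 8.2, 8.06 and 7.99 with celastrol. Values of Ifi35 at 4 days were 7.79, 7.94 and 7.84 with vehicle and 8.14, 7.68 and 8.2 with celastrol. The celastrol arrays at 4 days lay on both sides of the vehicle arrays. Lgals3bp is a secreted glycoprotein that binds galectins. At 6 h, Lgals3bp read 10.11, 10.21 and 10.19 on the vehicle arrays and 10.1, 10.15, 10.21 and 10.02 on the celastrol arrays. Lgals3bp at 1 day read 10.18, 10.16 and 10.29 with vehicle and 10.17, 10.36, 10.2 and 10.14 with celastrol. Values of Lgals3bp at 4 days were 9.88, 10.19 and 10.26 with vehicle and 10.18, 10.18 and 10.11 with celastrol. Its groups overlapped at each time. Ifi27 lay between 9.29 and 9.64.

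Genes upstream of and beside this group did not pass at any single time either. In each of 5 lists 0 were called at 6 h, 1 day and 4 days, against 0%, 0.425% and 0.0637% of all genes. Of 20 interferons, 15 had a single-symbol probe set and 7 were tested. Ifnb1, at 6.30, lay below the filter, and Ifng, at 7.12, just above it. The medians of the 7 were 0.104 at 6 h, -0.0497 at 1 day and -0.0666 at 4 days, and without vehicle replicate 3 of the same time -0.0403 at 6 h and -0.104 at 1 day. Ifna5 differed by 0.15 ± 0.096 and Ifnl2 by 0.11 ± 0.084 at 6 h, Ifna2 by -0.24 ± 0.11 and Ifna5 by 0.08 ± 0.096 at 1 day, and Ifna9 by 0.14 ± 0.11 and Ifnl2 by -0.10 ± 0.09 at 4 days (SE). These 6 differences had limma's adjusted p-values between 0.552 and 0.919. With vehicle replicate 3 of the same time left out, Ifna5 differed by 0.05 at 6 h and -0.04 at 1 day, and Ifnl2 by 0.01 at 6 h.

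Receptors and signalling genes, 17 tested of 19, had medians of -0.0251, 0.0121 and 0.00678 at the 3 times, the first of them -0.0047 without vehicle replicate 3 at 6 h. The smallest p-values were those of Jak2 (-0.13 ± 0.057, SE) and Socs1 (0.16 ± 0.078) at 6 h. At 1 day they were those of Irf2 (0.14 ± 0.053) and Irf8 (-0.22 ± 0.11), and at 4 days those of Tyk2 (0.18 ± 0.083) and Irf2 (0.12 ± 0.056). Nucleic acid sensing genes, 8 tested of 13, had medians of -0.0176, 0.0538 and 0.00407. There Tbk1, the kinase that activates IRF3, differed by -0.09 ± 0.049 at 6 h, 0.10 ± 0.049 at 1 day and 0.08 ± 0.053 at 4 days. Ticam1 differed by 0.11 ± 0.071 at 6 h, Traf6 by 0.09 ± 0.056 at 1 day and Mavs by 0.14 ± 0.059 at 4 days. Without vehicle replicate 3 at 6 h the 6 h differences were 0.02 for Socs1, -0.05 for Tbk1 and 0.00 for Ticam1, and the 6 h median of the sensing genes was -0.00782. Without vehicle replicate 3 at 1 day Traf6 differed by 0.16, and the 1-day median was 0.0276.

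MHC class I genes, 11 tested of 15, had medians of 0.0201, 0.027 and -0.00811, the first of them 0.0312 without vehicle replicate 3 at 6 h. Erap1, which trims peptides for MHC class I, differed by -0.23 ± 0.059 at 6 h with an adjusted p of 0.461, and Tap2 by 0.09 ± 0.053. At 1 day H2-M3 differed by -0.16 ± 0.065 and Psme1 by 0.10 ± 0.049, and at 4 days H2-M3 by -0.13 ± 0.069 and Tapbp by 0.08 ± 0.062. In the last list, 21 of 42 other interferon-induced genes were tested, with medians of 0.048, -0.0271 and -0.0112. Parp10 differed by 0.25 ± 0.074 and Oas3 by 0.25 ± 0.11 at 6 h, with adjusted p-values of 0.582 and 0.647. Oas3 differed by 0.09 without vehicle replicate 3 at 6 h. Gbp7 differed by -0.24 ± 0.091 at 1 day and -0.20 ± 0.097 at 4 days.

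Slfn5, an interferon-induced Schlafen protein, alone in these lists passed in the average over the times, against 0.573% of all genes. It was higher with celastrol by 0.29 ± 0.066 (SE), with an adjusted p of 0.049 in limma. Its differences were 0.32 ± 0.11 at 1 day and 0.37 ± 0.12 at 4 days, with adjusted p-values of 0.384 and 0.504. The call held in 10 of 28 other settings, which include 5 of the 20 that leave out 1 array, and the adjusted p reached 0.113 without vehicle replicate 1 at 1 day.

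Cell type markers were read on the same arrays. Of 12 microglia markers 11 were tested. At 6 h, 1 day and 4 days 0 of the 11 passed, against 0%, 0.425% and 0.0637% of all genes. At 1 day and at 4 days 5 were higher and 6 lower. At an unadjusted p under 0.05 limma gave 4 of the 11 at 1 day and 4 at 4 days, in either direction. Of all genes 5% were higher and 3.19% lower at 1 day, and 4.25% and 2.28% at 4 days. The smallest p-values were those of Cx3cr1 (-0.29) and Sall1 (-0.18) at 1 day, and C1qb (0.3) and P2ry12 (-0.28) at 4 days. The summed intensity of the 12 microglia markers ran from 8545 to 9040 in the 1-day vehicle arrays and from 8292 to 9345 in the 1-day celastrol arrays. Endothelial markers summed to 5989 to 6337 with vehicle at 1 day and to 5496 to 6278 with celastrol. Of 9 endothelial markers tested 5 were higher and 4 lower at 1 day, with a median of 0.0384. Among them 1 passed limma's test, against 0.425% of all genes: Cldn5, a tight junction protein, fell by 0.61 ± 0.10 (SE, adjusted p = 0.00857), and its call held with 19 of the 20 arrays left out in turn, but not without vehicle replicate 1 at 1 day (adjusted p = 0.0794). Esam, an endothelial adhesion molecule, differed by 0.32 ± 0.073 (SE) with an adjusted p of 0.0726. In the average over the times Cldn5 fell by 0.43 ± 0.061 (SE, adjusted p = 0.00155) and Esam rose by 0.20 ± 0.043 (SE, adjusted p = 0.0391), against 0.573% of all genes called, and the call of Esam held with 5 of the 20 arrays left out in turn. Of 8 astrocyte markers 6 were lower and 2 higher at 1 day, with a median of -0.0954. Among them 1 passed limma's test, against 0.425% of all genes. It was Sox9, which fell by 0.24 ± 0.052 (SE, adjusted p = 0.0478). That call held with 5 of the 20 arrays left out in turn (adjusted p up to 0.202). Sums of the astrocyte markers at 1 day ran from 24479 to 25487 with vehicle and from 23604 to 23944 with celastrol. The part of these cell types in the 1-day differences of Ifitm2, Ifitm3 and Gbp3 was not tested.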

How the data were processed

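Gene expression was measured on 20 Affymetrix Mouse Gene 1.0 ST arrays of hypothalamus, 1 column per array. The values the authors deposited are log2 intensities for 23492 probe sets, made with RMA per the submitters' processing notes, and its version is not given in the sources used here. RMA quantile normalizes the arrays, so a shift shared by most genes cannot be seen. Groups were taken from the sample labels, which name no batch. Only the 20228 probe sets with exactly 1 symbol in the platform annotation were used, and the 1399 with several symbols and the 1865 without one were not. Probe sets below the 25th percentile (log2 7.04) were left out as dim.

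The test was that of limma 3.58.1 (R 4.3.3), in 1 model with 6 group means, eBayes, two-sided tests, Benjamini-Hochberg adjustment over 14129 genes and a threshold of 0.05. The fit had 14 residual and 4.92 prior degrees of freedom. Precision is limited by the 3 or 4 arrays per group, and if these are not separate animals, p-values measure only the spread between these samples. The procedure was tested on simulated data. The genes, their roles and the other lists were chosen with earlier results of these data known, so no list was tested as a whole. Values on every array are given for the 3 genes with the smallest unadjusted p in each direction at each time and in the average, for those with the largest spread, and for the brightest and dimmest 3. Adar and Stat2 were those with the smallest spread. From each other list, the 2 genes with the smallest p at each time are named. Alternatives were each array left out, both arrays that stood apart left out, array weights, a replicate block, centring, quantile normalization, other filters, the mean of probe sets, trend with robust eBayes, and fits on the compared groups alone. The fits of every gene, role and list without the arrays that stood apart, those of 3 named cell type markers with each array left out, and all alternatives for the vehicle times and Slfn5 were chosen after seeing the data. Promoter windows came from RefSeq tables of GRCm38.p6.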

Additional observations from a re-analysis of the deposited data

Results flagged for a closer look

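In 37 genes and the 2 groups of 4 arrays, 74 sets of 4 values were examined for an array far from the others, of which chance flags about 1 in 20. There were 2 such arrays. Mx1, below the intensity filter, read 5.50 in celastrol replicate 1 at 6 h, where the other 3 celastrol arrays lay between 5.69 and 5.72. Parp9 read 7.05 in celastrol replicate 4 at 6 h, where the other 3 lay between 7.11 and 7.12.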

How the results depend on the processing

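The count of interferon-stimulated genes passing limma's threshold was 0 in each comparison under each alternative run. Of 697 values of the named genes under 30 settings, 695 kept their direction and stayed short of the threshold, with a lowest adjusted p of 0.0819. The exception was Dtx3l at 6 h, which was -0.11 and became 0.01 without vehicle replicate 3 at 6 h and with both arrays that stood apart left out. Leaving out single arrays gave it -0.18 to 0.01. The cause was not tested. Many of the 697 values could not change direction. A difference within a time stays as it was when an array of another group is left out. That difference is also unchanged under other filters, with trend and robust eBayes, and in fits on the compared groups alone.

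The 1-day median of the 33 genes, -0.0408, became 0.00572 with array weights, 0.00576 with both arrays left out and 0.00573 with a filter at the 50th percentile, which tests fewer genes. Leaving out single arrays gave -0.0754 to 0.00576, the latter without vehicle replicate 3. The median deviation of the 33 genes on single arrays had an SD of 0.0373 within groups, which is not the spread of a difference between groups. At 6 h leaving out arrays gave medians of -0.00938 to 0.0167, at 4 days -0.0137 to 0.0349, in the average -0.0242 to 0.00784, and between vehicle at 1 day and 6 h 0.0451 to 0.0764.

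Counts over all genes moved more. At 1 day 60 genes passed, against 196 with array weights and 18 to 85 with 1 array left out, among them 18, 19 and 23 without vehicle replicates 1, 2 and 3 and 30 and 26 without celastrol replicates 2 and 3. At 4 days 9 passed, against 20 with array weights, 5 with quantile normalization, 3 with trend and robust eBayes, 2 without a filter, 2 with the compared groups only and 0 to 20 with 1 array left out. At 6 h leaving out arrays gave 0 to 6. In the average 81 passed, against 39 with both arrays left out and 39 to 156 with 1 left out. The cause of these moves was not tested. The fit on the compared groups alone was not run for the average or the differences between times.

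Replicate numbers were examined as a pairing of vehicle with celastrol arrays of the same time. Of 9 same-numbered pairs, 1 had residuals that correlated above 0.1, with a range of -0.288 to 0.287. Pairs across times were not examined. With the replicate number as a block, 70 genes passed at 1 day, 10 at 4 days, 0 at 6 h and 89 in the average, and 0 of the 33 genes passed in each. The number of arrays and the low intensity of many of these genes limit what could be detected.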
